A study of Mus musculus with 2 samples.

Results

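Activated CD4 T cells were taken here as the barcodes of a tumour single-cell RNA experiment that carry the messages of the T cell receptor complex and of Cd4 together with those of Ccl1, Tnfsf11, Penk or Il1r2. A barcode marks 1 droplet, which usually holds 1 cell, and a unique molecular identifier (UMI) counts 1 captured RNA molecule. Barcodes had to hold 200 or more detected genes, with no more than 10% of UMIs from mitochondrial genes, to be kept. Members then had at least 2 UMIs of Cd3e, Cd3d and Cd3g together, at least 1 of Cd4, none of Foxp3, Cd8a or Cd8b1, at most 1 of the Ly49 genes Klra1, Klra6 and Klra7, at most 1 of the phagocyte genes C1qa, C1qb and Csf1r, and at least 2 of Ccl1, Tnfsf11, Penk and Il1r2 together. The gate took 577 of the 11500 barcodes deposited, 260 in the KPT library and 317 in the KP library. The other barcodes that pass every step but the last, 355 in KPT and 318 in KP, are called other CD4 barcodes below.

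Both libraries were made from live leukocytes, sorted by their surface protein CD45 from subcutaneous tumours on day 14 after inoculation, and read from RNA 3′ ends on the 10x Genomics platform. The KPT library carries the genotype label Tdg KO and the KP library the label WT; Tdg is the gene of thymine DNA glycosylase, which excises mismatched thymine from DNA, and the study is about p53-deficient cancer by its title. The labels call the tissue an allografted tumour and give no strain, sex or age of the mice, no word on whether tumours of several mice were pooled, and none on whether the genotype is that of the tumour cells, the host or both. There is 1 library per genotype, so preparation, mouse and genotype cannot be told apart, no test between libraries was possible, and every interval below is a 95% interval of counting error only.

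CD4 T cells that meet antigen on presenting cells switch on a set of ligands and receptors within hours. Tnfsf11 encodes RANKL, a TNF-family ligand that acts on dendritic cells and osteoclast precursors through RANK. Ccl1 is a chemokine whose receptor is CCR8, a receptor found on regulatory T cells and on Th2 cells, Penk encodes the precursor of the enkephalin opioid peptides, and Il1r2 encodes a decoy receptor that binds IL-1 without signalling. The loss of S1pr1, the receptor with which lymphocytes leave tissue, and the gain of Cxcr6, a receptor for a chemokine made by dendritic cells, are known features of T cells that stay in tissue.

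The genes of the gate lie on 4 chromosomes. In the GENCODE annotation of GRCm38, Ccl1 spans chr11:82176657-82305690 on the minus strand, Tnfsf11 chr14:78277445-78308043 on the minus strand, Penk chr4:4133531-4138819 on the minus strand and Il1r2 chr1:40074079-40125231 on the plus strand, and all 4 are protein coding. RefSeq promoter entries (GRCm38.p6) were found for 3 of the 4, Penk having none. The 250 bases before the RefSeq start are shown because members were chosen for RNA from these genes, and T cell activation acts on promoters through the factors NFAT, AP-1 and NF-kappaB. Letters in capitals mark matches on either strand to the NFAT core GGAAA or to the TATA box TATAAA. The windows lie at chr11:82179813-82180062 for Ccl1, chr14:78308044-78308293 for Tnfsf11 and chr1:40085843-40086092 for Il1r2. Those of Ccl1 and Il1r2 fall inside the GENCODE gene spans, which start further upstream.
Ccl1: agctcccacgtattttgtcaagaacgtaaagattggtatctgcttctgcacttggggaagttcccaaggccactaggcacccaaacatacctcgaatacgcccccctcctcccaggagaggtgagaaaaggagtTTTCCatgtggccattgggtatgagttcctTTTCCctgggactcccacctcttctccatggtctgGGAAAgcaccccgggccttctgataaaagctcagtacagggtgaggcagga
Tnfsf11: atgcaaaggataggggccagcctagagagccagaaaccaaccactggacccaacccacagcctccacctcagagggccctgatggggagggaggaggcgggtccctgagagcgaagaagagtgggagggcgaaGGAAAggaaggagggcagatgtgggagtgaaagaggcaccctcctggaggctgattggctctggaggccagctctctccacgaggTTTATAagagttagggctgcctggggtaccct
Il1r2: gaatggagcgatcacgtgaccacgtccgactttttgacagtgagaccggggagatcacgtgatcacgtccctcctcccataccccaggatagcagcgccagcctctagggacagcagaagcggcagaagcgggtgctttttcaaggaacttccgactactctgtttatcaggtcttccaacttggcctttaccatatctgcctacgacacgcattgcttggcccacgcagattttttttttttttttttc
The Ccl1 window held 3 matches to GGAAA, the Tnfsf11 window held 1 match to GGAAA and 1 to TATAAA, and the Il1r2 window held none of the motifs searched. None of the 3 windows held the AP-1 motif TGANTCA or the kappaB motif. Among 32851 promoter windows of the same length, 55.6% held GGAAA, 12.4% TATAAA, 6.75% TGANTCA and 1.41% the kappaB motif, so a match to the NFAT core is common. A match is a description of the letters and not a binding site.

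The gate itself asked for Cd3e, Cd3d and Cd3g, so the T cell label is set beside the receptor genes it did not use. Trac was found in 97.3% of KPT and 97.8% of KP members, and Trbc2 in 96.5% of KPT and 97.8% of KP members. The median depth per member was 6079.5 UMIs and 2055.5 genes in KPT and 6024 UMIs and 1967 genes in KP. The deepest members were deeper in KPT, with a maximum of 39251 UMIs in KPT and 24900 in KP, and the 260 KPT members summed to 2209008 UMIs and the 317 KP members to 2168842. Other CD4 barcodes were somewhat shallower, at 5326 UMIs in KPT and 5264 in KP. The libraries held 52586319 UMIs in 5896 barcodes (KPT) and 39819010 UMIs in 5604 barcodes (KP). They shared 8 barcodes, and no barcode was a member in both. Tdg was at 27.2 CPM (a gene's UMIs as a share of all UMIs of the summed barcodes, on the counts-per-million scale) in KPT members and 29.0 in KP members, a ratio of 0.935 (0.645 to 1.35), and at 26.5 CPM in KPT and 25.1 in KP over all kept barcodes (1.06, 0.974 to 1.15). UMIs of 3′ ends cannot check a deletion elsewhere in the gene, so these values do not check the genotype labels.

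Genes of other lineages were also present in part of the members, more often in KPT. A barcode was called mixed where it had at least 10 UMIs of the MHC class II and dendritic genes H2-Aa, H2-Ab1, H2-Eb1 and Cst3, at least 10 of the neutrophil genes S100a8, S100a9, Csf3r and Il1b, at least 10 of the Fc receptor adaptors Tyrobp and Fcer1g, at least 2 of the NK genes Ncr1 and Klrb1c, or at least 5 of the B cell genes Cd79a, Cd79b and Ms4a1. This held for 57 of 260 members in KPT (21.9%, 17 to 27.5%) and for 32 of 317 in KP (10.1%, 7.01 to 14.0%), against 7.61% of other CD4 barcodes in KPT and 7.23% in KP. The class II group alone marked 40 members in KPT (15.4%) and 20 in KP (6.31%). Mixed members had medians of 16196 UMIs in KPT and 13081.5 in KP, so they held 44.6% of all member UMIs in KPT and 19.9% in KP. Whether such barcodes hold more than 1 cell was not tested. Without them 203 members remained in KPT and 285 in KP, and the summed level of the dendritic markers Flt3, Xcr1, Cd209a and H2-Aa was then 29.4 CPM in KPT and 19.6 in KP, where all members had 968 CPM in KPT and 403 in KP. With mixed barcodes left out the median depth of members was 5480 UMIs in KPT and 5675 in KP. This removal was chosen after the data were seen. The results below are given for all members, without mixed barcodes, or for both, and not every difference between the sets is given.

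**Figure D1:**
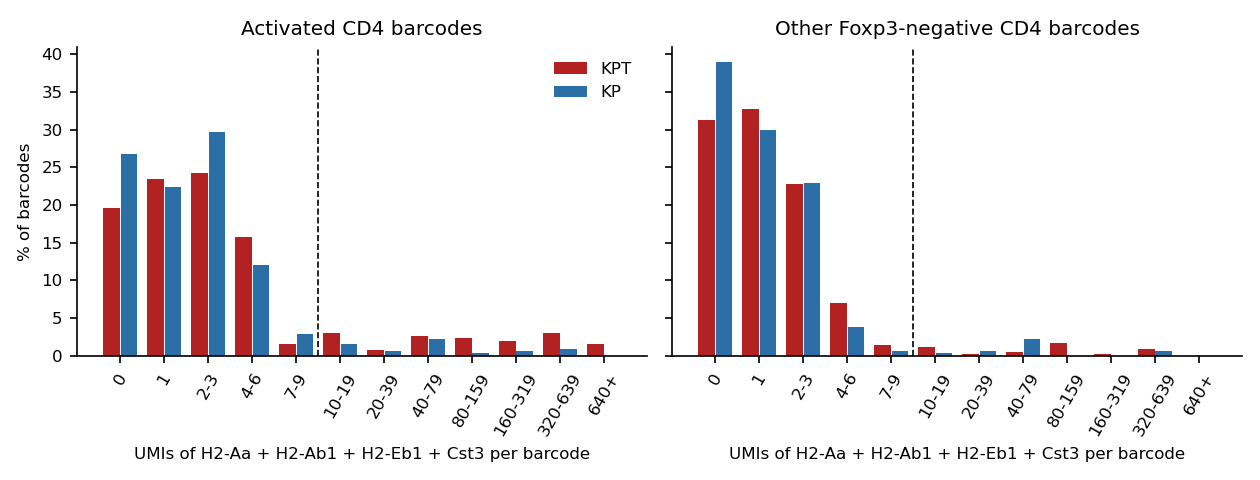
Share of barcodes (y axis, %) by their summed UMIs of H2-Aa, H2-Ab1, H2-Eb1 and Cst3 (x axis, binned), for activated CD4 barcodes and for other Foxp3-negative CD4 barcodes, KPT in red and KP in blue; the dashed line marks 10 UMIs. In the activated barcodes 15.4% of KPT and 6.31% of KP lie right of the line.

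As chosen by the full gate, activated CD4 barcodes made up a smaller share of the KPT library than of the KP library. They were 260 of 5693 kept barcodes in KPT (4.57%, 4.04 to 5.14%) and 317 of 5504 in KP (5.76%, 5.16 to 6.41%), a ratio of 0.793 (0.670 to 0.937). Within Foxp3-negative CD4 barcodes they were 260 of 615 in KPT (42.3%, 38.3 to 46.3%) and 317 of 635 in KP (49.9%, 46.0 to 53.9%), a ratio of 0.847 (0.716 to 1.00). Foxp3-negative CD4 barcodes as a whole were 10.8% of the kept barcodes in KPT and 11.5% in KP. Without mixed barcodes the activated share of kept barcodes was 3.57% in KPT and 5.18% in KP, a ratio of 0.689 (0.572 to 0.827). With 1 library each, these intervals do not cover the variation between tumours. When Foxp3-positive barcodes were let in as well, the ratio for kept barcodes was 0.920 (0.799 to 1.06). The direction did not hold when the Cd3 and gate-gene steps were applied alone. Kept barcodes with at least 2 UMIs of the Cd3 genes and 2 of the gate genes numbered 1222 in KPT and 959 in KP. Of these, 411 in KPT and 327 in KP had no Cd4, and 483 in KPT and 308 in KP had Foxp3. Cd8a or Cd8b1 was found in 485 in KPT and 310 in KP, and 339 in KPT and 123 in KP failed the phagocyte step. A barcode can fail several steps.

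Tnfsf11 was the gene that brought most members in. It was found in 231 members in KPT (88.8%) and 290 in KP (91.5%). Ccl1 was found in 76 in KPT (29.2%) and 108 in KP (34.1%), Penk in 69 in KPT (26.5%) and 89 in KP (28.1%), and Il1r2 in 76 in KPT (29.2%) and 122 in KP (38.5%). Tnfsf11 was the only gate gene in 97 KPT members (37.3%) and 105 KP members (33.1%). All 4 genes together were found in 10 members of KPT and 16 of KP. The gate sums these genes, which shapes how often they are found together, so nothing is read from their overlap. Among members with Il1r2, 32 of 76 in KPT and 15 of 122 in KP were mixed barcodes.

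The gate cuts a continuous range. The summed UMIs of the 4 genes had a median of 6 in KPT members and 8 in KP members, and a highest value of 703 in KPT and 431 in KP. Of all Foxp3-negative CD4 barcodes, 88 in KPT (14.3%) and 138 in KP (21.7%) had at least 10 such UMIs, and 268 in KPT and 255 in KP had none. Just inside the cut, with 2 UMIs, lay 47 barcodes in KPT and 51 in KP. Just outside it, with 1 UMI, lay 87 in KPT and 63 in KP. Cxcr6, which the gate did not use, was at 561 CPM just inside and 504 just outside in KPT, and at 488 inside and 417 outside in KP. It was at 257 CPM in KPT barcodes and 206 in KP barcodes with no gate-gene UMI. S1pr1 was at 187 CPM just inside and 262 just outside in KPT, at 206 inside and 295 outside in KP, and at 413 CPM in KPT barcodes and 407 in KP barcodes with none. Barcodes with 1 UMI thus had levels between those of barcodes with none and those of members for both genes.

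**Figure D2:**
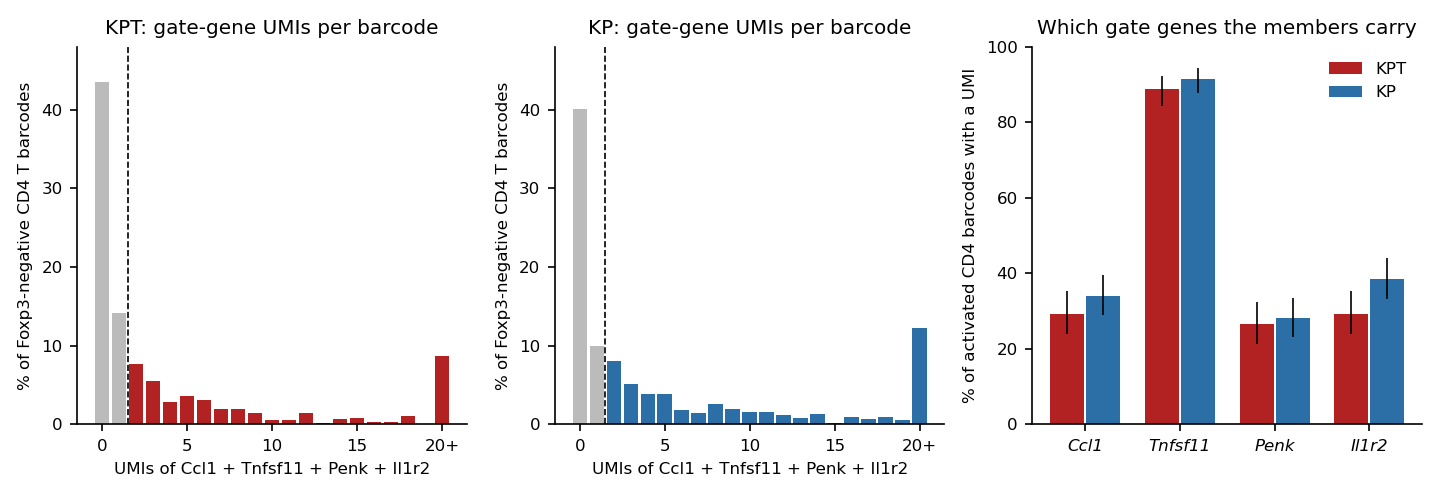
Left and middle, share of Foxp3-negative CD4 barcodes (y axis, %) by their summed UMIs of the 4 gate genes (x axis, 20 and above pooled) in KPT and in KP, with the cut as a dashed line; right, share of members with at least 1 UMI of each gate gene, with exact 95% intervals. Tnfsf11 is found in 88.8% of KPT and 91.5% of KP members, the other 3 genes in 26.5% to 38.5%.

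The members were 1 source of these messages among several. Members held 19% of the Ccl1 UMIs of the KPT library and 39.5% of those of KP, 25.5% (KPT) and 44.6% (KP) of Tnfsf11, 22.7% (KPT) and 40.3% (KP) of Penk, and 7.27% (KPT) and 11.6% (KP) of Il1r2. In KPT the largest part lay in 2576 barcodes that passed none of the gates used here for kinds of cell. These held 60.6% of the KPT UMIs of Ccl1, 54.3% of Tnfsf11, 58.4% of Penk and 58.3% of Il1r2. Which cells they hold was not tested. CD8 T barcodes carried Ccl1 in 12.4% of KPT and 15.3% of KP, and Foxp3-positive CD4 barcodes, which are regulatory T cells by that gene, in 12.3% of KPT and 6.54% of KP. B cell barcodes, taken here as the background that free RNA gives, had Ccl1 in 1.45% of KPT and 0.922% of KP, Tnfsf11 in 0% of KPT and 0.461% of KP, and Penk in 0% of KPT and 0.922% of KP, at median depths of 3614.5 UMIs in KPT and 3769 in KP. Il1r2 was widespread outside T cells. It was at 725 CPM in KPT and 798 in KP in barcodes of neutrophil genes, and at 241 CPM in KPT and 254 in KP in barcodes of MHC class II genes.

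The receptors for these ligands were found at low levels or in other cells. Ccr8, the receptor of Ccl1, was at 12.7 CPM in KPT members and 30.9 in KP members, and found in 9.23% of KPT and 17.4% of KP members. Without mixed barcodes Ccr8 was at 19.6 CPM in KPT members and 34.5 in KP members. In Foxp3-positive barcodes it was at 22.3 CPM in KPT and 22.4 in KP, and in other CD4 barcodes at 8.53 CPM in KPT and 8.58 in KP. Tnfrsf11a, which encodes the receptor RANK, was at 11.7 CPM in KPT and 8.4 in KP in barcodes of MHC class II genes, and at 3.17 CPM in KPT members and 1.84 in KP members.

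Between libraries, all 4 gate genes were lower in KPT members than in KP members, as a description of values the gate itself used. Ccl1 was at 916 CPM in KPT and 1878 in KP, a ratio of 0.488 (0.462 to 0.515). Tnfsf11 was at 535 CPM in KPT and 734 in KP (0.729, 0.676 to 0.786). Penk was at 561 CPM in KPT and 842 in KP (0.667, 0.620 to 0.717), and Il1r2 at 172 in KPT and 280 in KP (0.612, 0.537 to 0.697). Without mixed barcodes Ccl1 was at 1047 CPM in KPT and 2231 in KP, a ratio of 0.469. Its share of members with a UMI was then 29.1% in KPT and 34.7% in KP, a ratio of 0.837 (0.596 to 1.17), so the lower sum lay more in the UMIs per positive barcode than in their number. A few barcodes carried much of it. The top 3 barcodes held 57.1% of Ccl1 UMIs in KPT and 28.8% in KP. Tnfsf11 came to 724 CPM in KPT and 809 in KP without mixed barcodes. In Foxp3-positive CD4 barcodes the same ratios were 0.985 for Ccl1, 1.44 (1.22 to 1.71) for Tnfsf11, 1.00 for Penk and 0.867 for Il1r2.

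The comparison of activated with other CD4 barcodes asks what else the chosen cells express. Since the gate chose the members from these same cells, it is a description in both libraries. Of 6278 genes with at least 50 UMIs in each library, 131 (2.09%) were at least 2-fold higher in activated barcodes in both libraries and 39 (0.621%) at least 2-fold lower, the gate genes left out. Without mixed barcodes 108 of 5486 genes (1.97%) were higher and 37 (0.674%) lower, and 80 of the 108 were also among the 131. The values that follow are without mixed barcodes unless all members are named.

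Secreted cytokines and chemokines were higher in activated barcodes. Of 18 measured, 9 were at least 2-fold higher in activated barcodes in both libraries and none lower, namely Ccl3, Ccl4, Csf1, Csf2, Ifng, Il13, Il2, Tnfsf8 and Xcl1. Over all members 7 of 19 were higher in both, namely Ccl3, Csf2, Ifng, Il13, Il2, Tnf and Tnfsf14. The median log2 ratio of the 18 was 1.11 in KPT and 1.65 in KP, against 0.06 in KPT and 0.10 in KP for all genes measured. Ifng, the interferon that activates macrophages, was at 515 CPM in activated and 87.7 in other KPT barcodes, and at 579 CPM in activated and 89.7 in other KP barcodes. The ratios were 5.88 (4.93 to 7.04) in KPT and 6.46 (5.41 to 7.76) in KP. Ifng was found in 41.9% of activated and 14.0% of other barcodes in KPT, and in 42.5% of activated and 19% of other barcodes in KP, so most members had no Ifng UMI. Csf2, which encodes the myeloid growth factor GM-CSF, was at 76.0 CPM in activated and 1.68 in other KPT barcodes, and at 451 CPM in activated and 8.27 in other KP barcodes. Csf1, the growth factor of macrophages, was at 105 CPM in activated and 16.2 in other KPT barcodes (ratio 6.51), and at 110 CPM in activated and 35.6 in other KP barcodes (3.09). Xcl1, the chemokine of cross-presenting dendritic cells, was at 142 CPM in activated and 26.2 in other KPT barcodes and at 213 CPM in activated and 60.4 in other KP barcodes, with 1 barcode holding 44.3% of its KPT and 53.5% of its KP member UMIs. Il2 likewise had 68.6% of its KP member UMIs in 1 barcode.

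Genes of circulating and resting T cells were lower. Of 14 naive and memory genes measured, 6 were at least 2-fold lower in activated barcodes in both libraries and none higher, with a median log2 ratio of -0.89 in KPT and -1.54 in KP. Over all members 5 of 14 were lower in both and none higher. S1pr1 was at 90.8 CPM in activated and 403 in other KPT barcodes, and at 75.4 CPM in activated and 408 in other KP barcodes. The ratios were 0.225 (0.183 to 0.276) in KPT and 0.185 (0.152 to 0.223) in KP. It was found in 21.7% of activated and 60.4% of other barcodes in KPT and in 17.9% of activated and 55.3% of other barcodes in KP. Klf2, the transcription factor that drives S1pr1, was at 206 CPM in activated and 783 in other KPT barcodes and at 283 CPM in activated and 1182 in other KP barcodes. Lef1, a transcription factor of naive T cells, was at 77.7 CPM in activated and 158 in other KPT barcodes and at 64.5 CPM in activated and 179 in other KP barcodes. Slamf6, a receptor of less differentiated T cells, had ratios of 0.338 in KPT and 0.445 in KP, and Ifngr2, a chain of the interferon gamma receptor, had ratios of 0.358 in KPT and 0.307 in KP. Trib2, Ssh2, Trat1, Samhd1, Adk and Rasa3 complete the 10 lower genes that the naming rule gave, with ratios between 0.242 and 0.462.

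Cxcr6, the marker given with the gate but not used by it, was at 775 CPM in activated and 338 in other KPT barcodes (2.29, 2.07 to 2.55) and at 813 CPM in activated and 275 in other KP barcodes (2.95, 2.65 to 3.3). Over all members its ratio was 1.93 in KPT. It was the only one of 18 chemokine and homing receptors at least 2-fold higher in both libraries, while S1pr1 was lower in both.

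Of 10 checkpoint receptors measured, Havcr2, Lag3 and Pdcd1 were at least 2-fold higher in both libraries and none was lower. Over all members only Havcr2 and Lag3, of 11 measured, were higher in both. Pdcd1, which encodes PD-1, was at 315 CPM in activated and 145 in other KPT barcodes and at 292 CPM in activated and 78.2 in other KP barcodes. Lag3 was at 63.0 CPM in activated and 17.9 in other KPT barcodes and at 90.4 CPM in activated and 7.0 in other KP barcodes. Havcr2, which encodes TIM-3, had ratios of 3.3 in KPT and 4.15 in KP. Of 31 transcription factors and feedback genes of the antigen response, 5 were higher in both libraries and none lower. Over all members 4 of 34 were higher in both, namely Bhlhe40, Egr2, Egr3 and Rbpj. Bhlhe40, a factor that sustains cytokine output in T cells, was at 1505 CPM in activated and 648 in other KPT barcodes and at 1585 CPM in activated and 670 in other KP barcodes. Rbpj, the partner of Notch, had ratios of 2.42 in KPT and 2.71 in KP, Nr4a2 had 2.31 in KPT and 2.05 in KP, Dusp4 had 2.02 in KPT and 2.47 in KP and Egr3 had 12.2 in KPT and 4.04 in KP. None of 17 genes of the T cell receptor signalling list, none of 22 immediate early and heat shock genes and none of 7 proliferation genes reached 2-fold in the same direction in both libraries. Lists of these sizes would hold few such genes at the share over all genes, 1.97% higher and 0.674% lower, so these counts are near the background.

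Of 14 Th1 genes measured, Ifng, Il12rb2, Il18rap and Il2 were at least 2-fold higher in both libraries and none was lower. Over all members these were Ifng, Il12rb2, Il2 and Tnf. Tbx21, which encodes the Th1 factor T-bet, had ratios of 1.60 in KPT and 2.13 in KP. Of 5 Th17 genes Tmem176a and Tmem176b were higher in both libraries, as was Il13 of 7 Th2 genes. Of 5 follicular helper genes none was higher and Il6ra was lower. Median log2 ratios were 0.51 in KPT and 0.79 in KP for Th1, and 0.92 in KPT and 0.84 in KP for Th17. For Th2 they were 0.17 in KPT and 0.15 in KP. No helper type is read from these lists. Of 16 genes of the regulatory programme, Cd83 and Ebi3 were higher in both libraries and none was lower. In KP alone 8 of the 16 were at least 2-fold higher. The list's median log2 ratio was 0.49 in KPT and 0.91 in KP, against 0.06 in KPT and 0.10 in KP for all genes. Most genes known from regulatory T cells were lower in members than in Foxp3-positive CD4 barcodes in both libraries. Among them were Tnfrsf4, Tnfrsf9, Tnfrsf18, Ikzf4, Itgae, Lrrc32, Il10 and Ctla4. Ctla4 was at 531 CPM in members and 1180 in Foxp3-positive barcodes of KPT. In KP it was at 498 CPM in members and 1168 in Foxp3-positive barcodes. Nrp1 was an exception, and Ccr8 was lower in members in KPT and higher in KP. Ikzf2, which encodes Helios, was at 217 CPM in members and 1156 in Foxp3-positive barcodes of KPT, and at 182 CPM in members and 1092 in Foxp3-positive barcodes of KP. Il2ra, the high-affinity interleukin receptor chain CD25, was at 143 CPM in members and 674 in Foxp3-positive barcodes of KPT and at 147 CPM in members and 641 in Foxp3-positive barcodes of KP. Nrp1, a surface receptor of regulatory T cells from the thymus, was higher in members, at 129 CPM in members and 92.7 in Foxp3-positive barcodes of KPT and at 86.3 CPM in members and 42.0 in Foxp3-positive barcodes of KP. Outside the genes of regulatory T cells, Cxcr6 and Ifng were higher in members. Cxcr6 was at 775 CPM in members and 211 in Foxp3-positive barcodes of KPT, and at 813 CPM in members and 200 in Foxp3-positive barcodes of KP. Ifng was at 515 CPM in members and 104 in Foxp3-positive barcodes of KPT, and at 579 CPM in members and 97.4 in Foxp3-positive barcodes of KP. Foxp3-positive barcodes that also had at least 2 gate-gene UMIs, 90 in KPT and 70 in KP, had less Cxcr6 than members, at 338 CPM in KPT and 304 in KP, and less Ifng, at 145 CPM in KPT and 172 in KP. Such barcodes were frequent, since 130 of 301 Foxp3-positive barcodes in KPT (43.2%) and 93 of 214 in KP (43.5%) had a sum of 2 or more before mixed barcodes were left out.

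The 12 genes named first by the rule as higher in activated barcodes included several outside the lists. Dusp14, a phosphatase that restrains kinase signalling, was at 58.9 CPM in activated and 5.58 in other KPT barcodes and at 106 CPM in activated and 5.72 in other KP barcodes. Igfbp7, a secreted binding protein of growth factors, had ratios of 15.4 in KPT and 12.7 in KP, and Sulf2, which trims heparan sulfate, had 15.4 in KPT and 16.9 in KP. Ece1, which cleaves endothelin precursors, had ratios of 6.49 in KPT and 6.55 in KP, Ptprs, a receptor phosphatase, had 6.99 in KPT and 5.51 in KP, Plk2, a kinase, had 9.45 in KPT and 6.14 in KP, and Nrgn, which binds calmodulin, had 8.05 in KPT and 20.4 in KP. Ly6g5b had ratios of 5.05 in KPT and 6.59 in KP, Bace2 had 14.2 in KPT and 5.88 in KP, Pxdc1 had 7.17 in KPT and 4.28 in KP, and Ccdc184 had 4.78 in KPT and 7.64 in KP. The rule applied to all members also named Cd70, at 27.8 CPM in activated and 2.79 in other KPT barcodes and at 82.3 CPM in activated and 3.18 in other KP barcodes without mixed barcodes, and Grasp, with ratios of 3.10 in KPT and 5.88 in KP. Among the lower genes it added Cd55, a surface inhibitor of complement, with ratios of 0.160 in KPT and 0.0848 in KP. It also named Fabp5, a fatty acid carrier of macrophages and activated T cells, at ratios of 3.53 in KPT and 7.71 in KP, but 1 barcode held 48.5% of its member UMIs in KPT and 67.9% in KP, and without mixed barcodes the ratios were 1.07 in KPT and 0.854 in KP.

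**Figure D3:**
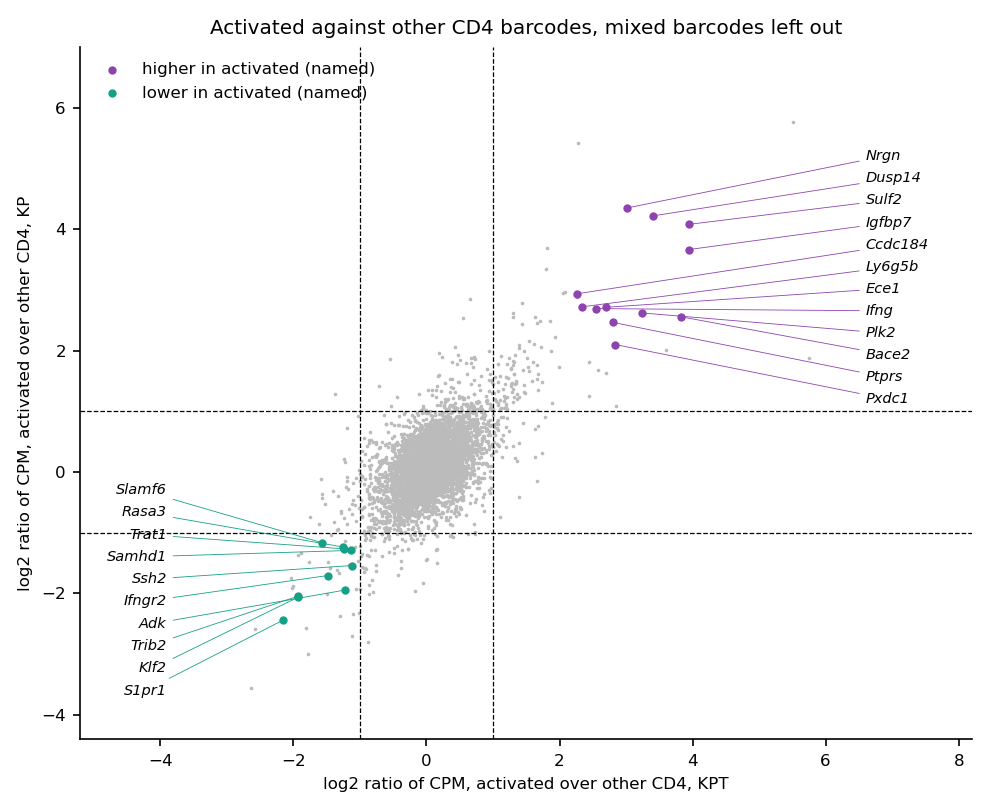
Log2 ratio of CPM, activated over other CD4 barcodes, in KPT (x axis) and in KP (y axis), without mixed barcodes; each grey point is 1 of 5486 genes, the named higher genes are purple and the named lower genes green, and dashed lines mark 2-fold. The upper right holds 108 genes and the lower left 37, and S1pr1 is the lowest of the 10 green genes in both libraries.

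The members were not uniform. Those with Tnfsf11 as the only gate gene, 86 in KPT and 95 in KP without mixed barcodes, were set beside those with Ccl1, Penk or Il1r2, 117 in KPT and 190 in KP. Median depths were 5707 UMIs in KPT and 5944.5 in KP for barcodes with Ccl1, Penk or Il1r2, and 5337 in KPT and 5392 in KP for Tnfsf11 alone. Both kinds were split by gate genes, so the values are a description.

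Barcodes with Ccl1, Penk or Il1r2 had more Cxcr6 and less of the genes of recirculation. Cxcr6 was at 949 CPM with these genes and 516 with Tnfsf11 alone in KPT, and at 931 with them and 563 with Tnfsf11 alone in KP. S1pr1 was at 26 CPM with these genes and 187 with Tnfsf11 alone in KPT (0.139, 0.0801 to 0.230), and at 37.2 CPM with them and 157 with Tnfsf11 alone in KP (0.238, 0.162 to 0.346). It was found in 10.3% of barcodes with these genes and 37.2% of those with Tnfsf11 alone in KPT, and in 8.95% with these genes and 35.8% with Tnfsf11 alone in KP. Tcf7, the factor of stem-like T cells, was at 64.3 CPM with these genes and 146 with Tnfsf11 alone in KPT, and at 32.2 with them and 106 with Tnfsf11 alone in KP. Klf2 was at 130 CPM with these genes and 319 with Tnfsf11 alone in KPT, and at 189 with them and 484 with Tnfsf11 alone in KP. Tnfsf11 alone thus marked the members whose levels of these genes lay nearer to those of other CD4 barcodes.

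The barcodes with Tnfsf11 alone also had more Cd40lg, the helper ligand of CD4 T cells, at 93.0 CPM with Ccl1, Penk or Il1r2 and 189 with Tnfsf11 alone in KPT and at 94.8 with those genes and 207 with Tnfsf11 alone in KP. Il1rl1, which encodes the IL-33 receptor, had ratios, with those genes over Tnfsf11 alone, of 0.382 in KPT and 0.259 in KP, and Gata3, the Th2 factor, of 0.713 in KPT and 0.559 in KP. Lag3, Pdcd1 and Ifng were at higher CPM in the barcodes with Ccl1, Penk or Il1r2. Lag3 had ratios of 4.51 (2.31 to 9.83) in KPT and 3.05 (1.92 to 5.08) in KP, Pdcd1 of 1.52 in KPT and 1.40 in KP, and Ifng of 1.71 (1.43 to 2.04) in KPT and 4.36 (3.54 to 5.42) in KP. Not every checkpoint or effector gene was higher there in both libraries. Ctla4 had ratios of 1.11 (0.941 to 1.30) in KPT and 1.37 in KP, Gzmb of 0.818 (0.518 to 1.30) in KPT and 6.30 (2.57 to 20.04) in KP, and Tnf of 0.731 (0.398 to 1.35) in KPT and 0.878 (0.554 to 1.42) in KP. Over all members the Tnf ratios were 1.61 (1.03 to 2.60) in KPT and 1.43 (0.973 to 2.14) in KP. Without mixed barcodes Csf2 went opposite ways, with ratios of 0.336 (0.211 to 0.526) in KPT and 20.02 (12.6 to 33.96) in KP. Over all members the Csf2 ratio was 1.21 (0.915 to 1.62) in KPT and 20.07 in KP. Il13 also went opposite ways, with 0.726 in KPT and 5.24 in KP without mixed barcodes. The sums of Csf2 and Il13 rest on few barcodes.

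**Figure D4:**
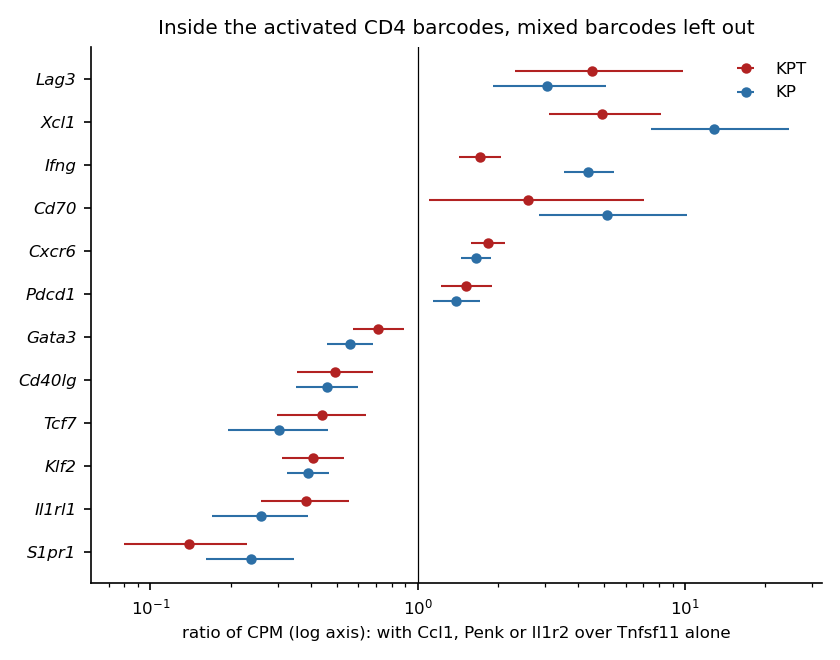
Ratio of CPM (x axis, log scale) in members with Ccl1, Penk or Il1r2 over members with Tnfsf11 alone, without mixed barcodes, for 12 genes (y axis) in KPT (red) and KP (blue); bars are 95% intervals of counting error. Lag3, Xcl1, Ifng, Cd70, Cxcr6 and Pdcd1 lie above 1 in both libraries, and Gata3, Cd40lg, Tcf7, Klf2, Il1rl1 and S1pr1 below 1 in both.

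The second comparison set KPT members beside KP members. Of 6825 genes with at least 50 UMIs, 581 (8.51%) were at least 1.5-fold higher in KPT and 208 (3.05%) at least 1.5-fold lower. When ratios were centred on their median the split was 447 higher and 273 lower. Mixed barcodes moved both sets. Without them, 346 of 5609 genes (6.17%) were higher and 205 (3.65%) lower, and of the 581 higher genes 166 were still past 1.5-fold while 304 no longer had 50 UMIs. Of the 208 lower genes 85 were still past 1.5-fold while 69 no longer had 50 UMIs.

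The genes named by the rule as higher in KPT over all members included genes of dendritic and NK cells. Cst3, which encodes cystatin C and is abundant in dendritic cells, was at 1918 CPM in KPT and 346 in KP (5.55, 5.13 to 6.0), and at 221 CPM in KPT and 230 in KP (0.959, 0.819 to 1.12) without mixed barcodes. H2-DMb1, a chaperone of MHC class II loading, was at 83.3 CPM in KPT and 12.4 in KP, and left 2 UMIs in KPT and 4 in KP. Gzma, a granzyme of NK and cytotoxic T cells, was at 179 CPM in KPT and 36.9 in KP, and at 8.18 CPM in KPT and 16.1 in KP without mixed barcodes. Ifi205, Ptgs2, Ccnd1, Ccdc88a, Plbd1, Pkib and Eps8 each had at most 3 UMIs per library without mixed barcodes, and Rnd3 had 18 in KPT and 3 in KP. Cxcl10, an interferon-induced chemokine, was at 89.6 CPM in KPT and 10.1 in KP over all members and without mixed barcodes at 29.4 CPM in KPT and 9.21 in KP (3.2, 1.73 to 6.17).

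Genes higher in KPT without mixed barcodes were led by Il13, the Th2 cytokine, at 150 CPM in KPT and 48.9 in KP (3.06, 2.35 to 4.0). This rests on few barcodes. Il13 was found in 13 of 203 members in KPT (6.40%) and 23 of 285 in KP (8.07%), the top 3 barcodes held 77.6% of its UMIs in KPT and 52.9% in KP, and the ratio was 1.46 with those barcodes left out of both libraries. Il5, its neighbour in function, was at 44.2 CPM in KPT and 15.5 in KP, with 90.7% of its KPT and 96.3% of its KP UMIs in 3 barcodes. Itga4, an integrin chain with which T cells enter tissue, was spread over many barcodes. It was at 90.8 CPM in KPT and 30.5 in KP (2.97, 2.13 to 4.21), and was found in 59 members of KPT (29.1%) and 24 of KP (8.42%), a ratio of shares of 3.45 (2.11 to 5.80). In other CD4 barcodes its ratio was 1.46. Ttc3, an E3 ubiquitin ligase, was at 74.4 CPM in KPT and 26.5 in KP and found in 28.6% of KPT and 13.3% of KP members. Ptpn11, which encodes the phosphatase SHP2, was at 63.8 CPM in KPT and 26.5 in KP and found in 29.6% of KPT and 14.7% of KP members. The other genes named by the rule were Calca with a ratio of 3.55, Lmo4 with 2.90, Nav2 with 3.82, Cwc25 with 2.55, Arhgap5 with 3.31, Zfyve16 with 2.96 and Slc22a15 with 2.99.

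Among the genes lower in KPT, Csf2 was at 76.0 CPM in KPT and 451 in KP (0.169, 0.134 to 0.209) without mixed barcodes, and at 121 CPM in KPT and 368 in KP (0.329, 0.285 to 0.378) over all members. Fewer members carried it, 18 of 203 in KPT (8.87%) and 58 of 285 in KP (20.4%), a ratio of shares of 0.436 (0.242 to 0.750). The top 3 barcodes held 73.1% of its UMIs in KPT and 67.7% in KP, and the ratio without them was 0.140. Gzmc, a granzyme, was at 6.54 CPM in KPT and 245 in KP (0.0267, 0.0115 to 0.0532) without mixed barcodes, and found in 3.94% of KPT and 13.0% of KP members. Over all members Gzmc was at 440 CPM in KPT and 509 in KP, so its value depends on which barcodes are counted. Cd70, the ligand of the costimulatory receptor CD27, was at 27.8 CPM in KPT and 82.3 in KP (0.338, 0.225 to 0.494). Tmsb10, which encodes a thymosin that binds actin, was the most abundant gene named, at 4023 CPM in KPT and 6871 in KP (0.586), and its ratio in other CD4 barcodes was 0.727. Hist1h2bc, a histone gene, was at 38.4 CPM in KPT and 142 in KP members (0.270), with 0.527 in other CD4 barcodes. Gbp6, an interferon-induced GTPase, was at 5.72 CPM in KPT and 26.5 in KP (0.216, 0.0823 to 0.482). Of the other genes the rule named as lower, Mt1 was at 34.3 CPM in KPT and 100.2 in KP, Hist1h4i at 12.3 in KPT and 40.9 in KP, Gstm5 at 11.4 in KPT and 26.5 in KP, and Upp1 had 2 UMIs in KPT and 31 in KP. Slpi, a protease inhibitor of neutrophils and epithelium, had a ratio of 0.0281 over all members and 1 UMI in KPT and 12 in KP without mixed barcodes. Tff1, a trefoil peptide, was at 84.2 CPM in KPT and 136 in KP.

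Genes of hypoxia and glycolysis were lower in KPT members as a group. Of 27 measured without mixed barcodes, 8 were at least 1.5-fold lower and none higher, beside 3.65% of all genes lower and 6.17% higher, and the median log2 ratio was -0.48 against 0.05 for all genes. Over all members the median was -0.42, with 11 of 29 lower and 1 higher. Slc2a3, the glucose transporter GLUT3, was at 39.2 CPM in KPT and 113 in KP (0.348, 0.248 to 0.479) and found in 17.7% of KPT and 30.5% of KP members. Aldoa, which encodes the glycolytic aldolase, was at 514 CPM in KPT and 848 in KP (0.605, 0.550 to 0.665), and Eno1, which encodes enolase, at 279 CPM in KPT and 494 in KP (0.564, 0.496 to 0.640). Pgk1 had a ratio of 0.616, Tpi1 of 0.607, Pgam1 of 0.658, Slc16a3, a lactate exporter, of 0.586 and Ankrd37 of 0.552. Gapdh, at 1327 CPM in KPT and 1919 in KP (0.692), and Ldha, at 716 CPM in KPT and 860 in KP (0.833), were lower by less than 1.5-fold. Bnip3, a mitophagy gene induced in hypoxia, was at 2.45 CPM in KPT and 17.8 in KP.

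The summed level of the 27 genes was 5557 CPM in KPT members and 7868 in KP members, a ratio of 0.706. The ratio was 0.708 in members with Ccl1, Penk or Il1r2 and 0.741 in those with Tnfsf11 alone. Other CD4 barcodes had 4539 CPM in KPT and 4773 in KP (0.951, median log2 ratio -0.07), Foxp3-positive CD4 barcodes 6418 CPM in KPT and 7659 in KP (0.838, -0.25), and CD8 T barcodes 4112 CPM in KPT and 5005 in KP (0.822, -0.28). The medians for these other kinds of barcode used a minimum of 20 UMIs per gene, which all 27 genes reached. With 1 library per genotype the difference between these ratios was not tested.

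The other lists were read without mixed barcodes beside the same share of all genes, 6.17% higher and 3.65% lower. All 3 interferon-induced transmembrane genes measured were lower in KPT without mixed barcodes, with a median log2 ratio of -0.92, whereas over all members the median was 0.61. Ifitm1 was at 71.1 CPM in KPT and 208 in KP (0.341, 0.267 to 0.433) without mixed barcodes and at 392 CPM in KPT and 258 in KP over all members. The list was lower in KPT in other CD4 (-0.83), Foxp3-positive (-0.77) and CD8 T barcodes (-1.39) as well. Of 11 proliferation genes 5 were higher in KPT, Mcm5, Mki67, Pclaf, Stmn1 and Tyms, with a median of 0.51, and the median was 0.44 in other CD4 barcodes, 0.31 in CD8 T barcodes and -0.05 in Foxp3-positive barcodes. In members with Ccl1, Penk or Il1r2 the proliferation median was 0.55 with 4 genes higher and none lower, and in members with Tnfsf11 alone 0.08 with 1 higher and 3 lower. These medians by kind of barcode used a lower minimum of 20 UMIs per gene. It was reached by 10 of the 11 genes with Ccl1, Penk or Il1r2 and by all 11 with Tnfsf11 alone. Of 9 genes on the list used here for Th2, Crem, Il13, Il1rl1 and Il5 were higher and Ccr8 and Plin2 lower, with a median of 0.57. The sums of Il13 and Il5 rest on few barcodes, as given above, so no Th2 shift is read from this list. Of 22 secreted cytokines and chemokines Il13 was higher and 4 were lower, with a median of -0.17. The lower ones were Ccl4, Csf2 and the gate genes Ccl1 and Penk, whose values chose the members, and Ifng had a ratio of 0.890. Checkpoint receptors had a median log2 ratio of 0.02 with 1 of 10 lower, and Cxcr6 had a ratio of 0.953 (0.877 to 1.04). Of 22 immediate early and heat shock genes Atf3, Dnajb1, Fosb and Zfp36 were higher, with ratios between 1.57 and 1.66, and the list's median was 0.14.

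**Figure D5:**
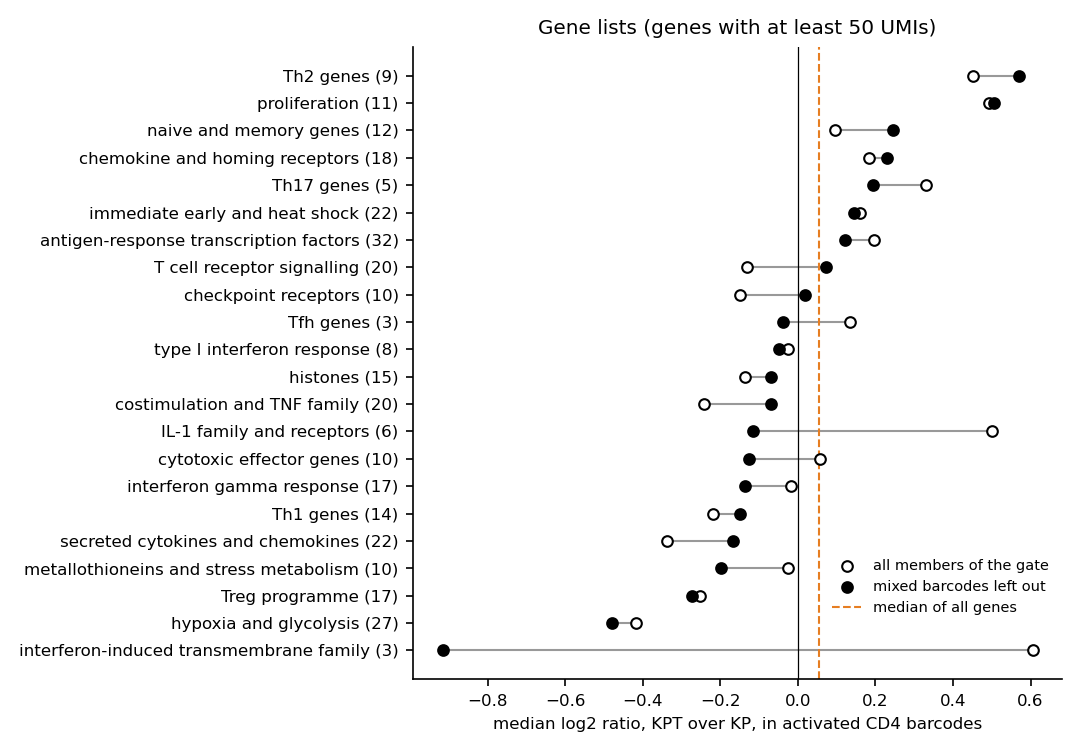
Median log2 ratio of CPM, KPT over KP, in activated CD4 barcodes (x axis) for gene lists with at least 3 measured genes (y axis, number measured without mixed barcodes in brackets); open circles are all members, filled circles leave mixed barcodes out, and the dashed line is the median of all genes without mixed barcodes. Hypoxia and glycolysis lie at -0.42 and -0.48, while the interferon-induced transmembrane family moves from 0.61 over all members to -0.92.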

How the data were processed

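The authors deposited raw UMI counts for each gene in each barcode, from Cell Ranger 6.0.1 per the file headers. Beside Cell Ranger, the submitters' processing notes list Seurat and mm10 without a role, and no annotation is given in the sources used here. Here the 32285 listed genes were summed to 32245 symbols. UMIs were summed over barcodes and given as CPM. Genes were called by the size of the ratio alone, 1.5-fold between libraries and 2-fold in both libraries between activated and other barcodes, among genes with at least 50 UMIs. Ratios have exact conditional Poisson and shares exact Clopper-Pearson 95% intervals. PCR duplicates are removed by UMIs, and the intervals cover counting error only. There is 1 library per group, so there was no test. Named genes were ranked by the interval bound nearest 1 among genes in at least 10% (activated against other) or 5% (KPT against KP) of barcodes, 12 higher and 10 lower, and 12 each way, leaving out genes of T cell receptors, immunoglobulins, ribosomes, mitochondria, haemoglobin and the sex chromosomes, and gene models without a symbol. The members of the gate, the gene lists and the rule were chosen with earlier results of these data known. Of the list genes, 2 were not found. Values of some list genes are not reported here. No doublet caller was run. Barcodes with genes of another lineage were counted in its place. The computation was tested on simulated data. In all 12 alternatives were planned and 2 added after seeing the data. Python 3.11.15, numpy 2.4.6, scipy 1.17.1, pandas 2.3.3 and matplotlib 3.10.9 were used.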

Additional observations from a re-analysis of the deposited data

Results flagged for a closer look

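For 10 named genes the ratio lay past 1.5-fold in opposite directions in the groups compared. The differences were not tested, as there is 1 library per genotype. Over all members, activated over other CD4 barcodes came to 1.74 in KPT and 0.581 in KP for Calca, 1.97 in KPT and 0.332 in KP for Cxcl10, 3.32 in KPT and 0.456 in KP for Gzma, 1.96 in KPT and 0.181 in KP for Ifi205, 1.54 in KPT and 0.579 in KP for Lmo4, and 2.66 in KPT and 0.503 in KP for Plbd1. Without mixed barcodes these were 1.66 in KPT and 0.503 in KP for Calca, 1.31 in KPT and 0.478 in KP for Lmo4, and 0.764 in KPT and 0.362 in KP for Cxcl10, which then lay on the same side, while Gzma had 0.697 in KPT and 1.41 in KP. Ifi205 and Plbd1 then had at most 2 UMIs in the members of a library.

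KPT over KP came to 1.52 in activated and 0.155 in other CD4 barcodes for Ifitm1, 2.53 in activated and 0.201 in other barcodes for Il13, 0.569 in activated and 1.73 in other barcodes for Mt1, which encodes a metallothionein, and 0.451 in activated and 4.42 in other barcodes for Tff1, which encodes a trefoil peptide. Without mixed barcodes Ifitm1 had 0.341 in activated and 0.180 in other barcodes, so the opposite direction was no longer there. Il13 had 3.06 in activated and 0.209 in other barcodes, Mt1 0.343 in activated and 2.15 in other, and Tff1 0.617 in activated and 5.44 in other.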

How the results depend on the processing

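The shares and the median of hypoxia and glycolysis genes kept their direction under each of the alternatives computed for them. The ratio of shares of kept barcodes ranged from 0.679 to 0.920 beside the main 0.793, and the median log2 ratio from -0.49 to -0.36 beside -0.42. Counts of genes moved with depth and with the minimum of UMIs, in the order higher in KPT, lower in KPT, higher in activated, lower in activated (main 581, 208, 131 and 39). They were 111, 88, 16 and 5 with barcodes thinned to 2000 UMIs before the gate, 238, 118, 52 and 20 with thinning after it, 1107, 451, 219 and 77 with a minimum of 20 UMIs and 257, 90, 86 and 20 with 100. With mixed barcodes left out 346 genes were higher in KPT, and with thinning added the counts were 200, 112, 45 and 14; both alternatives were chosen after seeing the data. Fewer genes reach the minimum after thinning. Of single genes, 82 of 86 results never changed direction in the settings where they had a value. Many changed in size. Of 1048 values over all settings, 872 were labelled the same, 165 moved and 11 reversed. Thinning before the gate left 5 the same, with 24 moved and 3 reversed. Leaving out mixed barcodes left 48 the same, with 21 moved and 3 reversed. Another setting left out barcodes with any UMI of C1qa, C1qb, Csf1r, Lyz2, Cd79a, Klra1, Klra6 or Klra7, which is not the definition of mixed barcodes. Ifitm1 (main 1.52) had 0.855 there. It had 0.290 thinned before and 0.773 after the gate, and 0.802 with barcodes weighted equally. Without mixed barcodes it had 0.341, and 0.267 with thinning added. Cst3 had 0.959 and 0.945 in those last settings. Fabp5, activated over other, had 0.512 in KPT and 0.725 in KP thinned before the gate, and 0.854 in KP without mixed barcodes. Genes under 50 UMIs in a setting got no value there.

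No paired analysis was possible because there is 1 library per genotype, and no replicate was left out for the same reason. The depth limits single genes at a few UMIs per barcode, a share of members with no UMI of a gene is not a share of cells without its RNA, and variation between tumours was not measured.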
